A study of Mus musculus with 6 samples.

Results

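The 10 genes described here encode RNA-binding proteins that set splicing and mRNA stability in neurons: Rbfox1, Rbfox2, Rbfox3, Nova1, Nova2, Ptbp1, Ptbp2, Elavl2, Elavl3 and Elavl4. They were chosen by name, as the rows whose gene column equals each symbol, and all 10 were found among 22544 gene rows. Upper-layer neurons of the cerebral cortex, marked by GFP and collected by fluorescence-activated sorting, came from Swiss Webster mice, an outbred stock, at postnatal day 5 (P5) and postnatal day 3 (P3), with 3 biological replicates at each age, and their RNA was sequenced. No treatment or mutation separates the ages. How GFP was introduced, and whether animals were pooled, is not given in the sources used here. The comparison is P5 against P3, in a series concerned with how neurons become post-mitotic.

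Splicing in neurons differs from that of most tissues because a small set of RNA-binding proteins is switched on, or off, as neurons form. Rbfox and Nova proteins bind short motifs in introns and favour or block the exon beside them, depending on where the motif lies. Ptbp1 represses neuronal exons in progenitors and non-neuronal cells, and newly formed neurons replace it with its paralogue Ptbp2. The neuronal Elavl proteins, also called Hu proteins, bind U-rich and AU-rich RNA, stabilise mRNAs and take part in splicing.

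Expression is given as FPKM, sequenced fragments scaled by the length of the transcript and the size of the library, so levels of different genes can be set side by side. All FPKM values, log2 ratios and p-values are those of the authors' deposited table, which holds 1 pooled value per age and no value per replicate. The spread between replicates therefore enters only through the authors' Cuffdiff test, from which a standard error (SE) of each log2 ratio of P5 over P3 was taken. In bulk RNA, fewer cells of a type and less RNA per cell cannot be told apart. Depth is unknown, since the table holds no counts.

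Of the 10 regulators, 8 had lower and 2 had higher FPKM at P5 than at P3, and none differed between the ages by the test. By pooled FPKM, Ptbp2 and Elavl3 were the most abundant at both ages and Ptbp1 the least, though the Ptbp1 value had a very wide error. The regulators with higher FPKM at P5 were Rbfox3 and Nova2, each beside paralogues with lower FPKM. All 10 had been tested and had at least 1 FPKM at both ages. Cuffdiff called 0 of them at q = 0.05, as it did 0% of the 12865 tested rows, with every q at 0.999988. At an unadjusted p under 0.05 there were 0 of the 10, beside 0.77% of tested rows, and p in the authors' deposited table ran from 0.406 for Rbfox1 to 0.932 for Ptbp1. FPKM was lower at P5 in 43.2% of all tested rows and in 48.9% of the 9665 rows with at least 1 FPKM at both ages. The median log2 ratio of the 10 was -0.58, beside 0.13 over tested rows and 0.02 over rows with at least 1 FPKM at both ages. A ratio of at least 1 log2 unit either way was reached by 0 of the 10 and by 21.5% of those 9665 rows.

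**Figure D1:**
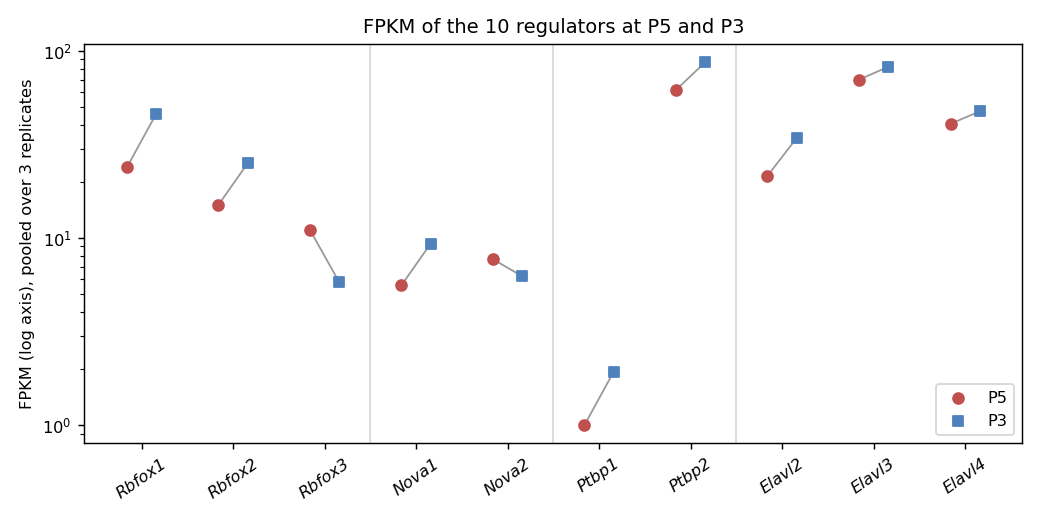
FPKM of each regulator on a log axis, P5 as circles and P3 as squares, 1 pooled value per age with no error bar, grouped by family. Ptbp2 and Elavl3 stand highest and Ptbp1 lowest at both ages, and the P5 circle lies above the P3 square for Rbfox3 and Nova2 only.

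The errors were wide beside these ratios. Leaving out Ptbp1, the SEs ran from 0.86 log2 units for Ptbp2 to 1.56 for Rbfox3, and the 95% interval of each of the 10 held 0. For Ptbp2, the most precisely measured, the interval of -2.17 to 1.19 allows anything from 0.222 to 2.28 times its P3 level. Across tested rows the median SE was 1.38. The statistic had a robust spread of 0.66 across rows, below the 1 of a standard normal. Divided by that spread, the statistic gave a lowest p of 0.21 among the 10, again for Rbfox1, and a q of 0.923.

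**Figure D2:**
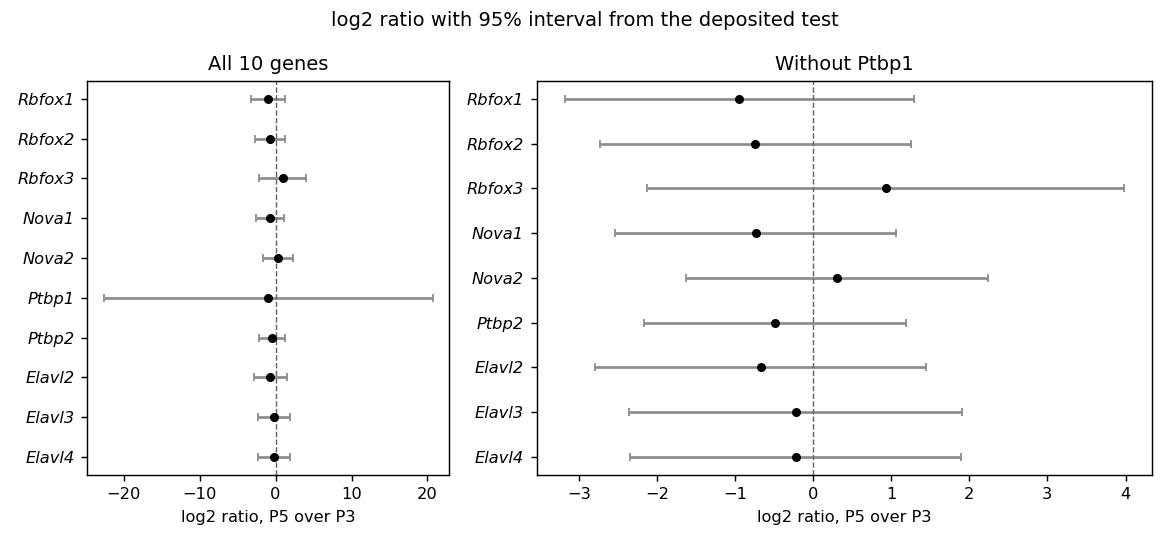
log2 ratio of P5 over P3 for each regulator (points) with the 95% interval implied by the deposited test (bars), for all 10 genes on the left and without Ptbp1 on an expanded axis on the right. Every bar crosses 0, and the bar of Ptbp1 runs from -22.6 to 20.7.

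Rbfox proteins carry a single RNA recognition motif that is almost alike in the 3 paralogues. Their coding sequences are distinct all the same. Among the longest complete coding transcripts of GENCODE M21 (mouse build GRCm38), Rbfox1 and Rbfox2 were alike at 73.3% of 1137 aligned bases, and their longest run of identical bases was 29. The stretch of 60 coding bases that the 3 genes share most closely is shown here to let the paralogues be compared base by base. In all 4 families the closest stretch was sought only among those that align without gaps and lie within 1 exon of every paralogue. Capitals mark the 15 positions that are not alike in all 3, and every line is given 5′ to 3′ on the coding strand.
Rbfox1: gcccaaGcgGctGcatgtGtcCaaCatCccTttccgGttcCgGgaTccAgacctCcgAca
Rbfox2: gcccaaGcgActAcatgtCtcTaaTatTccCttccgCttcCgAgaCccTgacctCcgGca
Rbfox3: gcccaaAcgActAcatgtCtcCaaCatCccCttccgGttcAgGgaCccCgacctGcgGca
On GRCm38 they lie at chr16:7277099-7277158 (plus strand), chr15:77116931-77116990 (minus strand) and chr11:118505633-118505692 (minus strand), each within 1 coding exon. In none of the 8 paralogue pairs of the 4 families did the coding sequences share a run of 36 bases. The read length is not given in the sources used here.

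Rbfox1 had the highest pooled FPKM of the Rbfox genes at both ages. No Rbfox pair was further apart than the combined errors of their ratios, which are upper limits for the error of either age. Rbfox1 (mm9 chromosome 16, 5884886 to 7412573), which regulates exons of ion channel and synaptic genes, had 23.8 FPKM at P5 and 45.9 FPKM at P3. Its log2 ratio was -0.95 (SE 1.14, 95% interval -3.18 to 1.29). Rbfox2 (mm9 chromosome 15, 76909420 to 77137483), the family member also expressed widely outside the nervous system, had 14.99 FPKM at P5 and 25.05 FPKM at P3, a log2 ratio of -0.74 (SE 1.01, interval -2.73 to 1.25). The gap between the ages was smaller than 1 SE for both genes, and p in the authors' deposited table was 0.406 for Rbfox1 and 0.465 for Rbfox2.

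Rbfox3 stood on the other side. Rbfox3 (mm9 chromosome 11, 118351074 to 118770886) encodes the antigen NeuN, which is widely used to mark maturing neurons. It had 11.0 FPKM at P5 and 5.81 FPKM at P3, a log2 ratio of 0.93 (SE 1.56, interval -2.13 to 3.99), with p = 0.553 in the authors' deposited table. Rbfox1 FPKM was 2.16 times that of Rbfox3 at P5 and 7.90 times at P3. The difference of their log2 ratios, Rbfox1 minus Rbfox3, was -1.87 with an interval of -5.66 to 1.92, and that of Rbfox2 minus Rbfox3 was -1.67 (-5.31 to 1.98), so neither separated Rbfox3 from its paralogues beyond their errors.

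As a family sum, Rbfox FPKM was 49.8 at P5 and 76.7 at P3. Rbfox3 made up 22.1% of it at P5 and 7.57% at P3, Rbfox1 47.8% at P5 and 59.8% at P3, and Rbfox2 30.1% at P5 and 32.6% at P3. Of all 10 genes, Rbfox3 moved most in rank order among tested rows towards higher levels, lying at percentile 67.6 of FPKM at P5 and 53.9 at P3.

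Nova proteins bind RNA through KH domains and were found as the targets of an autoimmune disorder of movement control in people with tumours. Their closest coding stretch holds 50 of 60 bases alike, and the paralogues were alike at 70.2% of 1437 aligned bases. The stretch is printed with capitals at the 10 differing positions.
Nova1: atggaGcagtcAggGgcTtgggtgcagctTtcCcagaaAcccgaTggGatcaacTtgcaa
Nova2: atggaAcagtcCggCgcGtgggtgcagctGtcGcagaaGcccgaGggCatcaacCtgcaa
These lie on GRCm38 at chr12:46700842-46700901 (minus strand) and chr7:18957608-18957667 (plus strand).

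The order of the Nova genes was opposite at the 2 ages. Nova1 (mm9 chromosome 12, 47795504 to 47919762), best known in hindbrain and spinal cord, had 5.59 FPKM at P5 and 9.33 FPKM at P3, a log2 ratio of -0.74 (SE 0.92, interval -2.54 to 1.06). Nova2 (mm9 chromosome 7, 19511237 to 19550668), the main Nova gene of the neocortex, had 7.70 FPKM at P5 and 6.24 FPKM at P3, a log2 ratio of 0.30 (SE 0.99, interval -1.63 to 2.23). In the authors' deposited table p was 0.42 for Nova1 and 0.759 for Nova2. Nova2 was thus 57.9% of the family sum at P5 and 40.1% at P3, while the sum itself was 13.3 FPKM at P5 and 15.6 FPKM at P3. The difference of log2 ratios, Nova1 minus Nova2, was -1.04 with an interval of -3.68 to 1.598, so the change of order was within error.

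**Figure D3:**
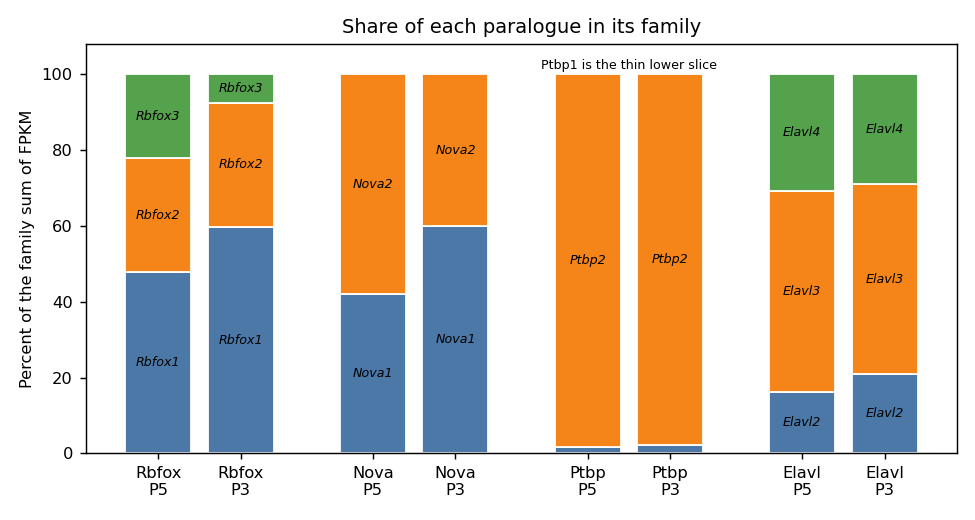
Percent of each family's summed FPKM held by each paralogue, as stacked bars, P5 left of P3 within a family and no error shown. Rbfox3 holds 22.1% of the Rbfox sum at P5 and 7.57% at P3, Nova2 holds 57.9% of the Nova sum at P5 and 40.1% at P3, and Ptbp2 holds 98.4% of the Ptbp sum at P5 and 97.8% at P3.

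The Ptbp genes differed most in pooled FPKM, but not beyond the error of Ptbp1. Ptbp2 (mm9 chromosome 3, 119421660 to 119486306), also called nPTB, holds back exons of adult synaptic genes in young neurons. It had 61.6 FPKM at P5 and 86.7 FPKM at P3, a log2 ratio of -0.49 (SE 0.86), with p = 0.565 in the authors' deposited table, and lay at percentile 93.4 of tested rows at P5 and 95.5 at P3. Ptbp1 (mm9 chromosome 10, 79314122 to 79337379) had 1.002 FPKM at P5 and 1.93 FPKM at P3, at percentile 12.7 at P5 and 30.6 at P3. Ptbp2 FPKM was 61.5 times that of Ptbp1 at P5 and 44.8 times at P3, and Ptbp2 was 98.4% of the sum of both genes at P5 and 97.8% at P3.

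The Ptbp1 value carried far less information than the others. Its log2 ratio of -0.95 had an SE of 11.1 (interval -22.6 to 20.7), larger than 98.5% of the SEs of 928 rows of like level (0.5 to 2 FPKM at P5 and 1 to 4 FPKM at P3), whose median SE was 1.86. That range of levels was chosen after the Ptbp1 values were seen. Ptbp1 was also the only regulator whose deposited locus is that of other rows: BC005764, with 14.2 FPKM at P5 and 5.43 FPKM at P3, and E130317F20Rik, with 0.94 FPKM at P5 and 2.39 FPKM at P3, have the same start and end. The part of this shared locus in the error was not tested, and the strandedness of the libraries is not given in the sources used here. The difference of log2 ratios, Ptbp1 minus Ptbp2, was -0.46 with an interval of -22.2 to 21.3, which sets no useful limit. With a pseudocount of 1 FPKM the Ptbp1 log2 ratio was -0.55 and the difference -0.07.

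The paralogues are tied to each other through 1 exon. When Ptbp1 is present, the 34-base exon of Ptbp2 is skipped, the reading frame is lost and the mRNA is degraded, and when Ptbp1 is scarce the exon is kept. The exon is printed as background on this pair, and its part in the levels given here was not tested.
Ptbp2 34-base exon: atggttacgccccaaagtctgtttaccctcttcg
It lies at chr3:119724612-119724645 (GRCm38, minus strand). Of 4 complete coding transcripts of Ptbp2 in GENCODE M21, 2 contain it, and the 1 annotated transcript that joins its neighbouring exons is classed as a target of nonsense-mediated decay. The table gives 1 value per gene, so inclusion of this exon was not measured. The most similar coding stretch of both genes, with capitals at its 8 differing positions, is as follows.
Ptbp1: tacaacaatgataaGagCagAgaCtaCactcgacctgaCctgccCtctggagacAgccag
Ptbp2: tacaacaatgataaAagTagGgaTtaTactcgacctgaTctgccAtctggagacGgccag
On GRCm38 it spans chr10:79859862-79859921 (plus strand) in Ptbp1 and chr3:119740370-119740429 (minus strand) in Ptbp2. Over 1583 aligned bases the coding sequences were alike at 70.9%, with no identical run above 14 bases.

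Other genes around this pair were read for context. Ptbp3, listed in the table under its older symbol Rod1, had 3.77 FPKM at P5 and 2.08 FPKM at P3, so Ptbp2 was 16.4 times as high at P5 and 41.7 times at P3. Srrm4, a neuronal splicing activator that favours inclusion of the 34-base exon, had 4.31 FPKM at P5 and 6.92 FPKM at P3 (log2 ratio -0.68, SE 1.12). Both were named after their values were seen. Among 7 genes with exons known to be repressed by Ptbp1 or Ptbp2, 4 had higher and 3 lower FPKM at P5, 0 were called, and the median log2 ratio of this list was 0.25. Dlg4, which encodes the postsynaptic scaffold PSD-95 and depends on release from Ptbp repression, was at 1.72 FPKM at P5 and 0.060 FPKM at P3, a log2 ratio of 4.85 (SE 2.69), with p = 0.071 in the authors' deposited table. The P3 value of Dlg4 was close to 0, at percentile 5.32 of tested rows, and the size of its ratio rests on that value. The clathrin light chain gene Clta was at 105 FPKM at P5 and 115 FPKM at P3.

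The neuronal Elavl genes were the most abundant family. Summed FPKM of Elavl2, Elavl3 and Elavl4 was 132 at P5 and 163 at P3. They were the most alike in sequence as well: coding identity was 78.3% over 1098 aligned bases for Elavl3 and Elavl4, 77.8% for Elavl2 and Elavl4, and 76.4% for Elavl2 and Elavl3. The closest stretch holds 49 of 60 bases alike, and capitals mark the other 11.
Elavl2: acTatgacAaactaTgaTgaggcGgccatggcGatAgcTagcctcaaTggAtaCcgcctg
Elavl3: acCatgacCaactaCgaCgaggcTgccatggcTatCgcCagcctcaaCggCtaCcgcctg
Elavl4: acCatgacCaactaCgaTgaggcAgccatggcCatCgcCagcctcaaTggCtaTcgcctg
All 3 lie on the minus strand of GRCm38, at chr4:91253294-91253353, chr9:22018557-22018616 and chr4:110206386-110206445.

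Elavl3 and Elavl4 had the log2 ratios nearest to 0 of the 10 regulators. Elavl3 (mm9 chromosome 9, 21819449 to 21856467), which encodes HuC and is expressed in most neurons, had 69.97 FPKM at P5 and 81.9 FPKM at P3, a log2 ratio of -0.23 (SE 1.09, interval -2.36 to 1.91). Elavl4 (mm9 chromosome 4, 109876342 to 110024516), which encodes HuD and stabilises growth-associated mRNAs, had 40.6 FPKM at P5 and 47.4 FPKM at P3, a log2 ratio of -0.22 (SE 1.08, interval -2.34 to 1.90). Elavl2 (mm9 chromosome 4, 90917457 to 91066675), which encodes HuB, had 21.4 FPKM at P5 and 34.2 FPKM at P3, a log2 ratio of -0.67 (SE 1.08, interval -2.79 to 1.45). In the authors' deposited table p was 0.835 for Elavl3, 0.836 for Elavl4 and 0.534 for Elavl2.

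The proportions within the Elavl family were close at both ages. Elavl3 was 53.0% of the sum at P5 and 50.1% at P3, Elavl4 30.8% at P5 and 29.0% at P3, and Elavl2 16.2% at P5 and 20.9% at P3. Elavl3 FPKM was 1.72 times that of Elavl4 at P5 and 1.73 times at P3. The difference of their log2 ratios, Elavl3 minus Elavl4, was -0.0029, but its interval of -3.01 to 3.01 does not show that they moved alike. Elavl1, which encodes the ubiquitous paralogue HuR, had 14.97 FPKM at P5 and 30.1 FPKM at P3, a log2 ratio of -1.01 (SE 0.88). The neuronal sum was 8.82 times the FPKM of Elavl1 at P5 and 5.43 times at P3.

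In order of FPKM at P5 the regulators ran Elavl3, Ptbp2, Elavl4, Rbfox1, Elavl2, Rbfox2, Rbfox3, Nova2, Nova1 and Ptbp1. At P3 the order was Ptbp2, Elavl3, Elavl4, Rbfox1, Elavl2, Rbfox2, Nova1, Nova2, Rbfox3 and Ptbp1. The SE of a ratio is an upper limit for the error of either age, and against the combined limits of 2 genes, taken as independent, 0 of the 9 gaps between neighbours in each order exceeded a 95% interval. Of all 45 pairs of regulators, 5 at P5 and 7 at P3 were further apart than that. At both ages Nova1 and Nova2 lay below Ptbp2 and Elavl3 by this measure. At P3 Rbfox3 also lay below Ptbp2 and Elavl3, while at P5 it did not separate from any regulator. By these upper limits Rbfox1, Rbfox2, Elavl2 and Ptbp1 separated from no regulator at either age. The limits were not narrowed by the robust spread of 0.66, so pairs inside them may still differ. For Ptbp1 the limits were too wide to place it, at 21.7 log2 units against its P5 neighbour Nova1. No 2 paralogues of a family were further apart than these upper limits at either age, which does not show that their levels were alike.

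**Figure D4:**
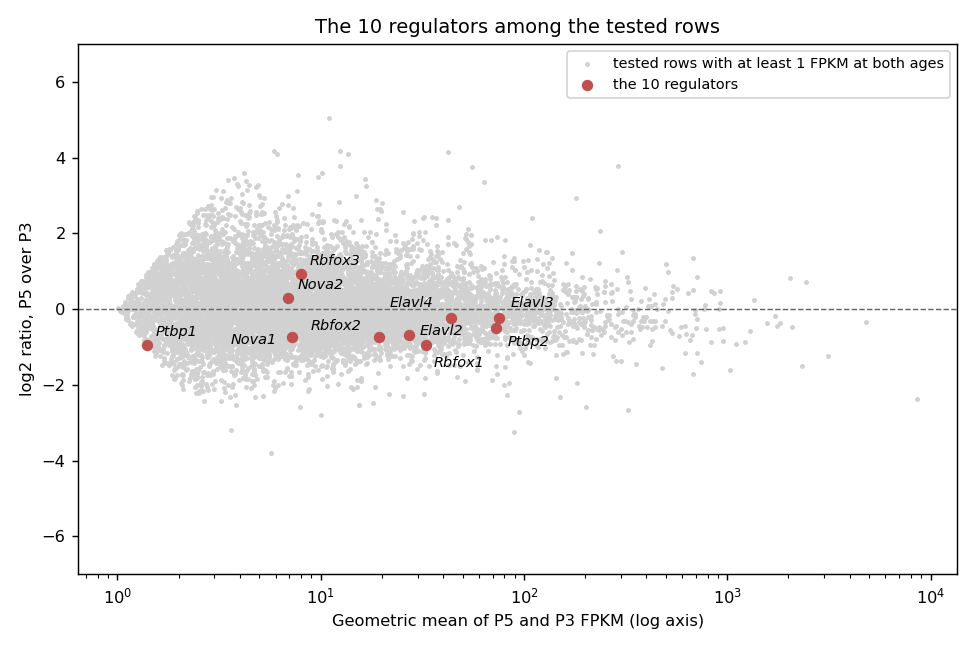
log2 ratio of P5 over P3 against the geometric mean of both FPKM values (log axis) for the 9665 tested rows with at least 1 FPKM at both ages (grey) and the 10 regulators (red). The regulators lie within 1 log2 unit of 0, inside the cloud of other rows, with Rbfox3 and Nova2 above the line.

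Lists of other RNA-binding protein genes show where the 10 stand. Of 21 other paralogues and splicing regulators of neurons, 20 had been tested, 11 with higher and 9 with lower FPKM at P5, 0 called, and a median log2 ratio of 0.18. Of 36 genes of mRNA transport, translation and decay, 31 had been tested, 14 higher and 17 lower at P5, 0 called, with a median of -0.24. Neither list had a member at an unadjusted p under 0.05. Over both lists the median was -0.07, against -0.58 for the 10 regulators and 0.13 for all tested rows.

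The splicing list held the most abundant gene of both lists. Qk, which encodes the glial splicing regulator Quaking, had 629 FPKM at P5 and 458 FPKM at P3, with an SE of 5.58 around a log2 ratio of 0.46. Khdrbs3, a STAR family gene that controls neurexin splicing, had 53.4 FPKM at P5 and 128 FPKM at P3, a log2 ratio of -1.26 (SE 0.86), and its p of 0.141 in the authors' deposited table was the lowest of the list. Rbm4b had 19.7 FPKM at P5 and 43.2 FPKM at P3. Celf2 was high at both ages (63.8 FPKM at P5 and 76.6 FPKM at P3) but has the status FAIL and was not tested.

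In the list for mRNA transport, translation and decay, the cold-inducible gene Cirbp had 154 FPKM at P5 and 124 FPKM at P3. Tial1, a stress granule protein gene, had 48.7 FPKM at P5 and 112 FPKM at P3. The lowest p-values belonged to the decay factor gene Khsrp, at 10.1 FPKM at P5 and 27.6 FPKM at P3 (log2 ratio -1.45, SE 0.95), and to Pcbp3, at 9.40 FPKM at P5 and 1.35 FPKM at P3 (log2 ratio 2.80, SE 2.11). In the authors' deposited table p was 0.125 for Khsrp and 0.185 for Pcbp3.

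Among these 2 lists, the gene nearest to each regulator was taken by distance on log2(FPKM + 1) over its 2 pooled values, which is a likeness of levels only. Elavl4 lay nearest to Caprin1 (40.2 FPKM at P5 and 47.7 FPKM at P3) at a distance of 0.02. Rbfox3 lay nearest to Khdrbs2 (10.7 FPKM at P5 and 5.44 FPKM at P3) and Nova2 to Mbnl1 (7.56 FPKM at P5 and 6.67 FPKM at P3), both at 0.09. Rbfox1 was nearest to G3bp1, Rbfox2 to Elavl1, Nova1 to Celf5 and Elavl2 to Syncrip, at distances of 0.14 to 0.26. Ptbp2 and Elavl3 had the same nearest gene, Pcbp2, and Ptbp1 was nearest to Igf2bp2, at distances of 0.45 to 0.59.

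Genes whose transcripts these proteins bind were read at the level of the gene, which says nothing of their exons. Of the 7 Rbfox targets that had been tested, 4 were at higher and 3 at lower FPKM in P5 neurons, and their median log2 ratio was 0.25. Snap25, a vesicle fusion gene with alternative exons, had 129 FPKM at P5 and 36.5 FPKM at P3 (log2 ratio 1.82, SE 1.04), with p = 0.0799 in the authors' deposited table. Epb4.1, a membrane skeleton gene, had 5.61 FPKM at P5 and 9.13 FPKM at P3. Vamp1, whose mRNA Rbfox1 stabilises, was at 0.21 FPKM at P5 and listed at 0 at P3, and was not tested.

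Nova and Elavl targets were likewise spread on both sides of 0. Of 7 Nova targets, 3 were higher and 4 lower at P5, with a median of -0.13. The glycine receptor gene Glra2 was at 2.34 FPKM at P5 and 7.11 FPKM at P3, the inhibitory scaffold gene Gphn at 24.2 FPKM at P5 and 29.0 FPKM at P3, and Dab1, which carries the Reelin signal, at 25.4 FPKM at P5 and 32.6 FPKM at P3. Of 7 Elavl targets, 3 were higher and 4 lower, with a median of -0.07. Gap43, the growth cone gene bound by HuD, was at 1474 FPKM at P5 and 1243 FPKM at P3, Bdnf at 2.12 FPKM at P5 and 0.68 FPKM at P3, Mycn at 12.8 FPKM at P5 and 23.8 FPKM at P3, and Ank3 at 22.4 FPKM at P5 and 27.2 FPKM at P3. Cuffdiff called 0 of the genes in the 4 target lists, and 0 had an unadjusted p under 0.05.

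Markers of the labelled cell type and of other cells were read beside these values. All 8 upper-layer markers were detected, with a summed FPKM of 476 at P5 and 471 at P3, 5 of 8 lower at P5. Mef2c and Rorb made up most of that sum, and the other 6 summed to 98.98 FPKM at P5 and 196 FPKM at P3. All 7 pan-neuronal markers were detected as well, with a sum of 1244 FPKM at P5 and 638 FPKM at P3, and 5 of 6 tested were higher at P5. Without Stmn2 the pan-neuronal sum was 486 FPKM at P5 and 307 FPKM at P3. Rbfox3 and Nova2 had the same direction as this sum, and the other 8 regulators had the opposite one. A link between the regulators and these markers was not tested.

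Transcripts of other cells were present at both ages. Progenitor markers summed to 4421 FPKM at P5 and 5594 FPKM at P3, with 8 of 10 lower at P5. Most of that sum was Fabp7, and without it the sum was 149 FPKM at P5 and 206 FPKM at P3. Astrocyte markers summed to 3004 FPKM at P5 and 2375 FPKM at P3 (7 of 8 higher at P5). Slc1a3, Aldoc and Gja1 made up most of that sum at both ages, and the rest had log2 ratios from 0.38 (Aldh1l1) to 2.94 (Apoe). Oligodendrocyte lineage markers summed to 249 FPKM at P5 and 123 FPKM at P3 (8 of 8 higher, with Mag listed at 0 at P3). Microglia markers summed to 134 FPKM at P5 and 15.7 FPKM at P3 (9 of 9 higher). At P3 that sum was mostly C1qb (9.69 FPKM) and Aif1 (4.04 FPKM), with the other microglia markers at only 0.18 to 0.49 FPKM. Endothelial and mural markers summed to 947 FPKM at P5 and 916 FPKM at P3, mostly Rgs5 (42.2 FPKM at P5 and 4.94 FPKM at P3 without it), with 6 of 8 tested higher and Tek listed at 0 at P3. Deep-layer markers summed to 141 FPKM at P5 and 58.8 FPKM at P3 (5 of 7 higher, Bcl11b and Tbr1 lower). Most of the deep-layer sum at P5 was Rprm (51.4 FPKM at P5 and 5.43 FPKM at P3) and Pcp4 (49.3 FPKM at P5 and 14.5 FPKM at P3). Interneuron markers summed to 499 FPKM at P5 and 243 FPKM at P3 (4 of 7 tested higher). The interneuron sum was mostly Npy and Sst, and the other 6 markers summed to 47.4 FPKM at P5 and 57.9 FPKM at P3. Cuffdiff called 0 of all these markers, 6 had an unadjusted p under 0.05, and the part of cell mixture in the values of the 10 regulators was not tested.

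**Figure D5:**
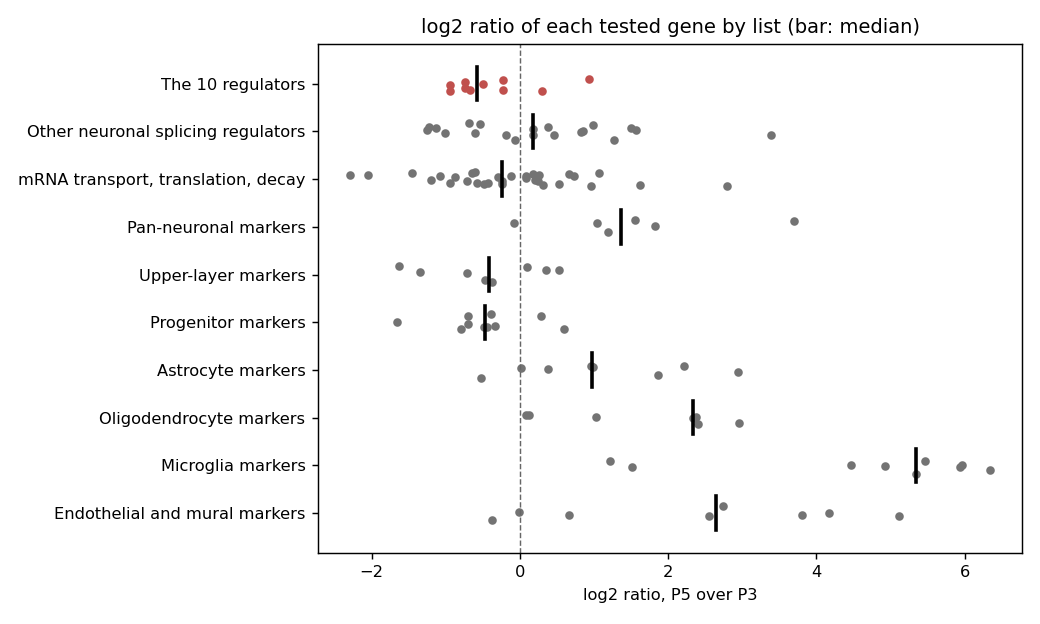
log2 ratio of P5 over P3 for each tested gene with FPKM above 0 at both ages, by list, with a bar at the median (vertical jitter only separates points). The 10 regulators (red) have a median of -0.58, below the pan-neuronal markers and beside the upper-layer (-0.42) and progenitor (-0.47) markers. Microglia markers reach a median of 5.35, over a median level of only 0.30 FPKM at P3.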

How the data were processed

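RNA sequencing of sorted neurons from 3 replicates at P5 and 3 at P3 was analysed from 1 deposited table. The submitters' processing notes name TopHat, Cuffdiff 2.02 and build mm9, without their roles; annotation and read length are not stated. Per the file headers, the table holds the authors' FPKM (1 pooled value per age), a log2 ratio and a test statistic (both handled as scores, since placeholders stand where an age is at 0), p-values and q-values. Of 22544 rows, 12865 have status OK and count as tested, and percentiles are among these. Ratios and SEs use the 12313 above 0 at both ages.

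The deposited p matched a normal tail of the statistic (both sides) within 2.8e-06, so each SE is the log2 ratio divided by the statistic. Starts are printed counted from 1. Coding sequences came from GENCODE M21 on GRCm38, and no coordinate was moved between builds. The table's symbol for Map2 is Mtap2. Genes named were the 10 regulators, the 2 most abundant and the 2 of lowest p in each list of RNA-binding or target genes (among tested members reaching 1 FPKM), and the nearest gene to each regulator. Some genes that this rule selects are not reported here. Srrm4, Ptbp3, Celf2 and Vamp1 were added after their values were seen. The members and lists were chosen with earlier results of these data known. Calculations used Python 3.11.15, pandas 2.3.3 and scipy 1.17.1. The computation of SEs, intervals and q-values was run on simulated normal ratios built from the same SEs. That checks the arithmetic only, since the simulated statistic lacked the narrower spread of the real one. The other steps were not run on simulated data.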

Additional observations from a re-analysis of the deposited data

How the results depend on the processing

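No regulator was called under any of the 6 alternatives to the deposited q (q at 0.01, unadjusted p, Bonferroni, a minimum of 1 FPKM at either age, a minimum log2 ratio of 1, and the statistic divided by its robust spread, under which 3 rows of the whole table were called). The median log2 ratio of the 10 lay between -0.71 and -0.38 over pseudocounts of 1 and 0.1 FPKM, the filter of 1 FPKM, centring, the mean, and leaving out Ptbp1, which was added after seeing the data. A pseudocount cannot turn the sign of a single gene's ratio, so only its size was examined. With 1 FPKM added, the Ptbp1 log2 ratio was -0.55 in place of -0.95, and Ptbp1 minus Ptbp2 was -0.07 in place of -0.46. Elavl3 minus Elavl4 stayed near 0, at -0.0049 in place of -0.0029. Centring on the median of tested rows shifts every ratio alike and gave -0.36 in place of -0.23 for Elavl3, -0.35 in place of -0.22 for Elavl4 and 0.17 in place of 0.30 for Nova2. The other values of single regulators and paralogue differences moved by less than 1.5 times. No paired analysis was possible because the table holds no value per replicate, and leaving out replicates could not be run for the same reason. Depth is unknown, and errors near 1 log2 unit limit what can be detected.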
